A study of Oryza sativa with 9 samples.

Results

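Rice carries, on chromosome 4, a cluster of genes for the diterpenoids momilactone A and B. Its 5 gene models, OS04G0178300, OS04G0178400, OS04G0179200, OS04G0179700 and OS04G0180400, were followed here in root RNA of 3 rice lines. They were chosen by identifier around momilactone A synthase, OS04G0179200, out of 105692 gene models in the files. OS04G0179700 was listed at 0 in all 9 libraries, so the numbered model that shares its strand and span, model 22832, was read in its place. The other 4 members were above 0 under their own identifiers.

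Momilactones are made in plastids and the surrounding cell from geranylgeranyl diphosphate, the common precursor of diterpenoids. A copalyl diphosphate synthase closes the first rings in this precursor, a kaurene-synthase-like enzyme turns the product into a pimaradiene, and cytochrome P450 enzymes and a short-chain dehydrogenase then oxidise the hydrocarbon. Rice roots release momilactones into the soil, where they hold back the growth of neighbouring plants, and rice leaves make them when attacked by fungi. Rice is one of the plants in which the genes of such a pathway lie side by side on the chromosome.

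The plants were Oryza sativa of the cultivar Dongjin, grown in soil for 7 days with 10 h of light and 14 h of dark, and total RNA was taken from the roots. OE2 is labelled as an overexpression line and dgk1 as a knockout line of diacylglycerol kinase 1, the enzyme that turns the signalling lipid diacylglycerol into phosphatidic acid, and WT is the wild type of the same cultivar. Each line had 3 libraries, called biological repetitions in the study's design. The sources used here do not give the overexpression promoter, the kind of knockout allele or the number of plants per library.

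RNA read at the locus of the targeted kinase did not follow the order of the labels. OS04G0634700 was listed at 0 in every library, and the numbered model on its strand and span, model 25546, had 0.521, 0.625 and 0.571 FPKM (fragments per kilobase of model, scaled to depth) in the OE2 libraries, 7.24, 5.60 and 9.16 FPKM in the dgk1 libraries and 0.896, 0.738 and 0.487 FPKM in the WT libraries. The direction of every difference below is therefore that of libraries labelled OE2, dgk1 or WT, not of more or less kinase. Libraries held 8908397 to 12459460 fragments. On the third principal component, with 11.9% of the variance, WT replicate 1 (53.8) and OE2 replicate 2 (32.8) stood apart to one side and dgk1 replicate 2 (-32.8) to the other, and fits without the first pair and without all 3 are given where they ended a call. Of the root markers, 9 models of silicon transporters, Casparian strip proteins and high-affinity nitrate transporters, 8 were above 0, with Casparian strip membrane protein 4 (OS02G0743900) at 0. Their summed level, mostly that of the silicon transporter LSI2, was 228 to 285 FPKM in OE2, 224 to 248 FPKM in dgk1 and 272 to 327 FPKM in WT. In bulk tissue, fewer cells of a type and less RNA per cell cannot be told apart.

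The members lie between positions 5318070 and 5486703 of chromosome 4 in the files' coordinates, a span of 168.634 kb. It holds 33 models, of which 8 are annotated genes, 3 are numbered models assembled from the reads and 22 are noncoding models. OS04G0178300 lies on the plus strand from 5318070 to 5326425. CYP99A3, OS04G0178400, lies on the minus strand from 5332365 to 5334476. Momilactone A synthase lies on the minus strand from 5385722 to 5387215, and model 22832 on the minus strand from 5428347 to 5434023. OS04G0180400 closes the cluster on the plus strand from 5484865 to 5486703. Of the 33 models only 7 were above 0 in any library, and the 22 noncoding models were not among them. RefSeq's gene table, on another assembly, lists along this stretch of chromosome 4 the synthase CPS4, CYP99A3, momilactone A synthase, KSL4 and CYP99A2. By symbol, 2 of the 5 members, CYP99A3 and KSL4 (OS04G0179700), matched that table. The files describe OS04G0178300 and OS04G0180400 by their identifiers alone, so neither is given an enzyme name here.

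The members differed widely in level. Momilactone A synthase was the most abundant in all 9 libraries, between 41.8 and 134 FPKM. CYP99A3 followed at 9.45 to 26.2 FPKM in each of them. The 3 other members stayed near or below 1 FPKM, with 0.193 to 0.939 FPKM for OS04G0178300, 0.133 to 1.10 FPKM for model 22832 and 0 to 0.841 FPKM for OS04G0180400. FPKM is divided by model length, so these levels can be set side by side. The ranges of the 3 low members overlapped one another, and their order is not resolved at this depth. Only momilactone A synthase and CYP99A3 reached 1 FPKM in at least 3 of 9 libraries, the level asked of a model before it was tested.

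**Figure D1:**
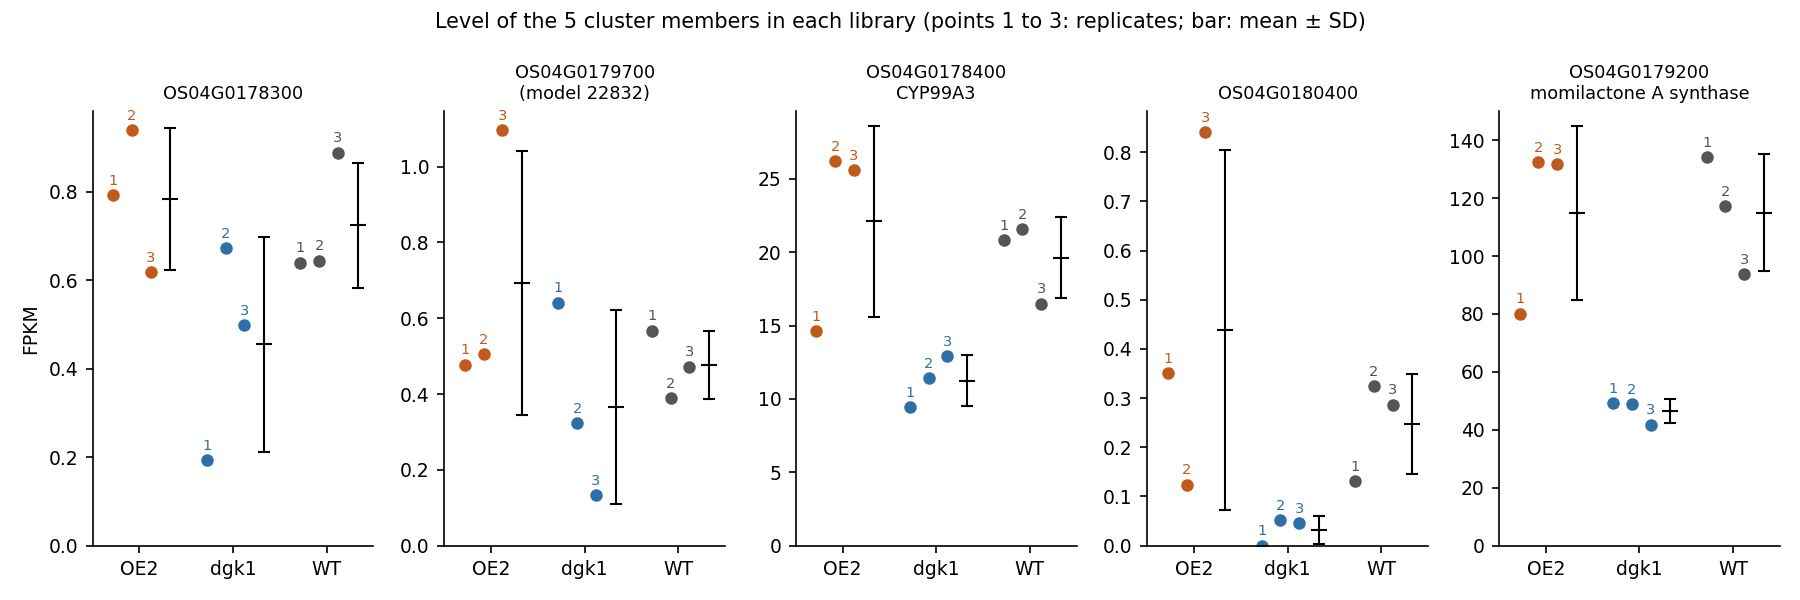
FPKM (fragments per kilobase of model, scaled to depth; vertical axes start at 0 and differ between panels) of the 5 cluster members in the 3 libraries of OE2, dgk1 and WT. Points are libraries with their replicate number, and the bars to their right are the mean ± SD (n = 3). The 3 dgk1 libraries lie below all OE2 and WT libraries for CYP99A3 and momilactone A synthase.

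Momilactone A synthase, the short-chain dehydrogenase of the pathway's closing step, fell in libraries labelled dgk1. It had 49.1, 48.9 and 41.8 FPKM in the dgk1 libraries, against 134, 117 and 93.7 FPKM in the WT libraries. All dgk1 libraries were below all WT libraries, and the dgk1 libraries lay close together. The means were 46.6 ± 4.18 FPKM in dgk1 and 115 ± 20.3 FPKM in WT (SD, n = 3 each), a ratio of 0.405. The log2 fold change on the scale of log2(FPKM + 1) was -1.27 ± 0.21 (SE), with an adjusted p of 0.0427 in limma over 22383 tested models. Momilactone A synthase was thus 1 of 2 tested members called lower, where 0.143% of all tested models were called lower and 0.675% in either direction. The call stands close to the threshold of 0.05. It was lost when any single dgk1 or WT library was left out (adjusted p 0.0651 to 0.201), without OE2 replicate 2 (0.0534) or 3 (0.0657), and without WT replicate 1 and OE2 replicate 2 together (0.111) or these and dgk1 replicate 2 (0.168). It was also lost with no filter on low values (0.0825) and with a replicate block (0.156). The fold change stayed between -1.41 and -1.16 in these fits.

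Between libraries labelled OE2 and dgk1 the synthase differed by about as much. The OE2 libraries had 80.0, 132 and 132 FPKM, against 49.1, 48.9 and 41.8 FPKM in the dgk1 libraries. All OE2 libraries were above all dgk1 libraries, with OE2 replicate 1 well below OE2 replicates 2 and 3. The log2 fold change was 1.25 ± 0.21 (SE), with an adjusted p of 0.0083 in limma, and the ratio of the means was 2.46. Here too 1 of 2 tested members was called higher, where 3.2% of tested models were called higher and 6.36% in either direction. Among the fits that left out 1 library, the call was lost only without OE2 replicate 3 (adjusted p 0.0544), and it was also lost without the 3 libraries that stood apart on the third principal component (0.0897). Both comparisons use the same 3 dgk1 libraries and are not independent of each other.

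Libraries labelled OE2 and WT overlapped for the synthase. The OE2 mean was 115 ± 30.0 FPKM and the WT mean 115 ± 20.3 FPKM (SD, n = 3 each). The log2 fold change was -0.025 with a 95% interval of -0.51 to 0.46 and an adjusted p of 0.968 in limma. Its sign turned to 0.21 without OE2 replicate 1 and to 0.093 without WT replicate 1. Of the 2 tested members 0 were called between OE2 and WT by limma, 0 had an unadjusted p under 0.05, and voom on recovered fragments called 0, where 6.96% of tested models were called by limma. The interval reaches changes in either direction, so equal levels are not shown.

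CYP99A3, the P450 described in the files as 9-beta-pimara-7,15-diene oxidase, acts before the synthase on the hydrocarbon. It had 14.6, 26.2 and 25.6 FPKM in the OE2 libraries, 9.45, 11.4 and 12.9 FPKM in the dgk1 libraries and 20.8, 21.6 and 16.5 FPKM in the WT libraries. The dgk1 libraries again lay below all the others, and OE2 replicate 1 was again the lowest of its line. The mean was 11.3 ± 1.74 FPKM in dgk1 and 19.6 ± 2.75 FPKM in WT (SD, n = 3 each). For dgk1 against WT the log2 fold change was -0.75 ± 0.23 (SE), which did not pass limma's test (adjusted p 0.268). Against dgk1, OE2 gave 0.88 ± 0.23 (SE), with an adjusted p of 0.0637. That of OE2 over dgk1 passed without OE2 replicate 1 (adjusted p 0.0124) and in voom (0.0175). For OE2 against WT it was 0.13, with a 95% interval of -0.39 to 0.65, an adjusted p of 0.802, and a value of -0.0094 without OE2 replicate 2.

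Libraries that did not overlap were far more common in the whole table than calls. Both tested members had all dgk1 libraries below all WT libraries, as did 7.09% of the tested models. Both had all OE2 libraries above all dgk1 libraries, as did 13.3% of the tested models. The median log2 fold change of the 2 tested members was 1.07 for OE2 against dgk1, 0.052 for OE2 against WT and -1.01 for dgk1 against WT. Over all tested models the medians of these comparisons were -0.0027, 0.0054 and -0.0059.

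The ratio of the synthase to the P450 varied between libraries. Momilactone A synthase stood at 5.47, 5.05 and 5.16 times the FPKM of CYP99A3 in the OE2 libraries, 5.20, 4.29 and 3.23 times in the dgk1 libraries and 6.44, 5.43 and 5.68 times in the WT libraries. The OE2 ratios were tight, and each dgk1 ratio lay below each WT ratio. The means were 5.23 ± 0.220 in OE2, 4.24 ± 0.983 in dgk1 and 5.85 ± 0.524 in WT (SD, n = 3 each).

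The 3 members below the level for testing were read from their fragments. OS04G0178300 had 0.792, 0.939 and 0.618 FPKM in the OE2 libraries, 0.193, 0.673 and 0.499 FPKM in the dgk1 libraries and 0.639, 0.644 and 0.888 FPKM in the WT libraries. The dgk1 libraries ranged widely and overlapped the others. Summed over each line's libraries these were 72 fragments in OE2, 52 in dgk1 and 80 in WT. The depth-scaled ratio was 0.595 for dgk1 against WT (95% exact binomial interval 0.411 to 0.854) and 1.76 for OE2 against dgk1 (1.22 to 2.57). These intervals cover counting error only and not the spread between libraries. With the filter lifted, limma gave adjusted p-values of 0.762 for dgk1 against WT and 0.451 for OE2 against dgk1. In voom the log2 fold changes were -0.87 and 0.95 in the same order, with adjusted p-values of 0.429 and 0.229.

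Model 22832, at the locus of KSL4, carries the N-terminal and metal-binding domains of terpene synthases in the files' description. KSL4 makes the pimaradiene hydrocarbon from which momilactones are built. Model 22832 had 0.478, 0.506 and 1.10 FPKM in the OE2 libraries, 0.641, 0.323 and 0.133 FPKM in the dgk1 libraries and 0.567, 0.390 and 0.473 FPKM in the WT libraries. All 3 lines overlapped. The fragments were 72 in OE2, 49 in dgk1 and 57 in WT, so the depth-scaled ratio was 0.787 for dgk1 against WT (95% exact binomial interval 0.526 to 1.17), 1.87 for OE2 against dgk1 (1.28 to 2.75) and 1.47 for OE2 against WT (1.03 to 2.12). The first interval includes no change and the other 2 do not, for counting error only. OE2 replicate 3 alone held 38 of the 72 fragments in OE2, and dgk1 replicate 1 held 30 of the 49 in dgk1. In voom the adjusted p-values were 0.731, 0.279 and 0.653 in the same order, so no difference passed a test over libraries.

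OS04G0180400 had the fewest fragments of the 5 members. Its level was 0.351, 0.124 and 0.841 FPKM in the OE2 libraries, 0, 0.0518 and 0.0461 FPKM in the dgk1 libraries and 0.131, 0.324 and 0.287 FPKM in the WT libraries. Each dgk1 library lay below each OE2 and WT library, on very few fragments: 22 in OE2, 2 in dgk1 and 15 in WT. The depth-scaled ratio was 0.122 for dgk1 against WT (95% exact binomial interval 0.0135 to 0.525) and 14.0 for OE2 against dgk1 (3.44 to 123), for counting error only. In voom the adjusted p-values were 0.309 and 0.0775, so neither difference passed a test over libraries. OS04G0180500, a model on the opposite strand that overlaps it, was listed at 0 in all libraries.

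Summed over the 5 members, the cluster stood at 139 ± 36.8 FPKM in OE2, 58.7 ± 3.05 FPKM in dgk1 and 136 ± 22.5 FPKM in WT (SD, n = 3 each). The sum follows momilactone A synthase, its most abundant part. A two-sided exact permutation test over libraries gave p = 0.1 for dgk1 against WT and for OE2 against dgk1, the smallest p that 3 against 3 libraries allow, and p = 0.8 for OE2 against WT.

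Other models inside the span were also read. Model 22830 runs on the minus strand from 5380120 to 5387215, covers momilactone A synthase and the neighbouring OS04G0179100, and carries the domain of an enoyl reductase, a relative of short-chain dehydrogenases. It had 42.4, 58.0 and 69.5 FPKM in the OE2 libraries, 27.7, 20.7 and 20.4 FPKM in the dgk1 libraries and 75.5, 86.0 and 41.4 FPKM in the WT libraries, so the dgk1 libraries were the lowest here too. The log2 fold change for OE2 over dgk1 was 1.25 ± 0.29 (SE), called with an adjusted p of 0.0375 in limma, and lost without any single OE2 or dgk1 library (0.0569 to 0.163), without WT replicate 1 and OE2 replicate 2 (0.128) or these and dgk1 replicate 2 (0.220), with no filter on low values (0.0673) and with a replicate block (0.0945). Against WT, dgk1 gave -1.47 ± 0.29 (SE) and was not called (adjusted p 0.0834), though it passed in voom (0.0399) and without WT replicate 3 (0.0276). The models overlap on one strand, so the authors' counting could have split the synthase's fragments between them. The share that went to the synthase was similar in the lines, 61.9% to 66.3% in OE2, 60.5% to 67.1% in dgk1 and 54.0% to 66.1% in WT. Both models together had 228 ± 56.6 fragments per 1000000 in OE2, 92.5 ± 10.0 in dgk1 and 245 ± 56.7 in WT (SD, n = 3 each).

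OS04G0180300, just before OS04G0180400 and on the opposite strand, is described by the name of a genomic clone only. It had 0.754, 0.399 and 1.68 FPKM in the OE2 libraries, 0, 0.111 and 0.0989 FPKM in the dgk1 libraries and 1.27, 1.74 and 0.352 FPKM in the WT libraries. These were 22 fragments in OE2, 2 in dgk1 and 28 in WT. OS04G0180300 passed the filter through OE2 replicate 3 and WT replicates 1 and 2 only, so its inclusion favours lower dgk1 values. The adjusted p-values in limma were 0.337 for dgk1 against WT and 0.233 for OE2 against dgk1. Of the remaining models of the span, OS04G0179100, OS04G0180500 and model 22828, which overlaps OS04G0178300 and carries a terpene synthase domain, were listed at 0 in all libraries.

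**Figure D2:**
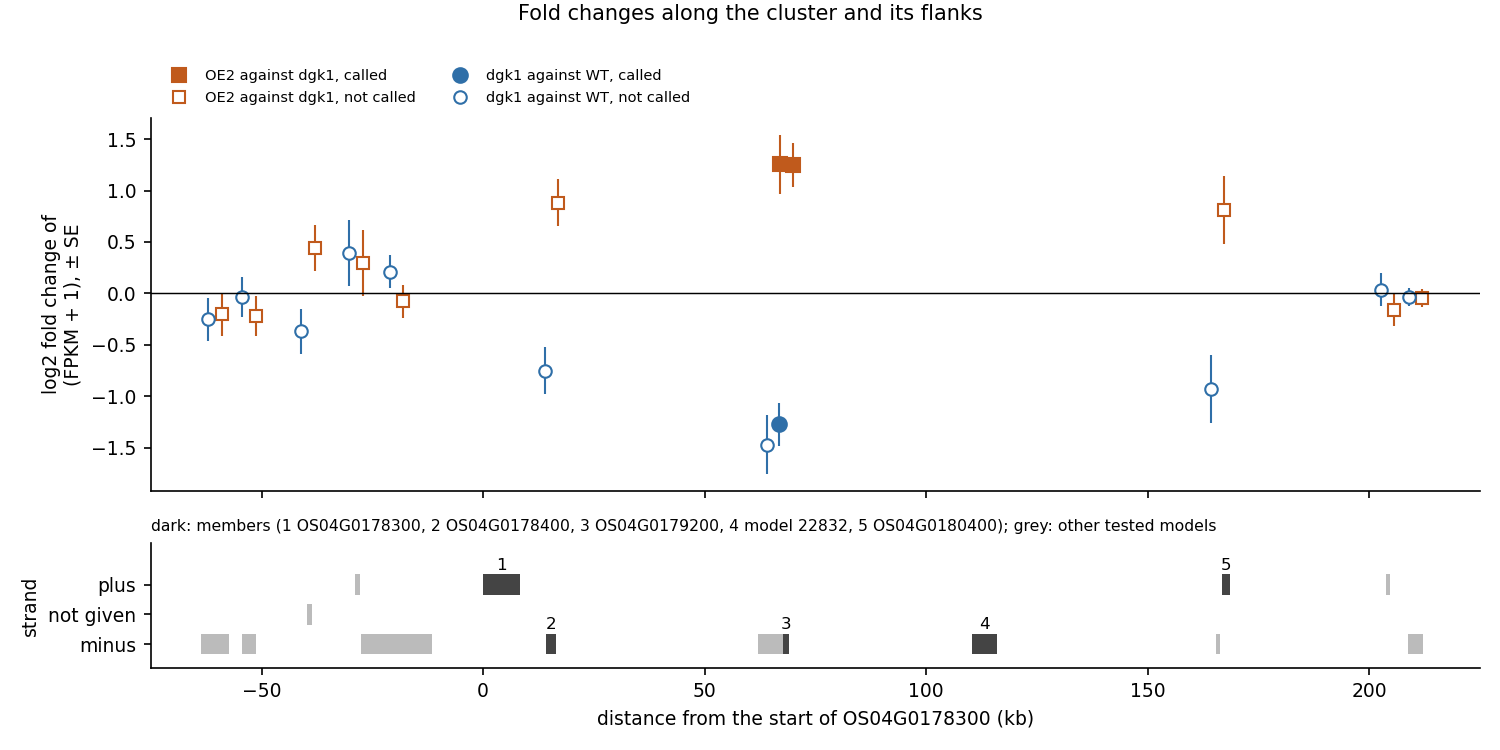
Log2 fold changes of log2(FPKM + 1) (± SE) of the tested models along the cluster, against distance in kb from the start of OS04G0178300, for OE2 against dgk1 (squares) and dgk1 against WT (circles), drawn slightly side by side. Filled symbols passed limma's adjusted p of 0.05, and the lower panel shows the models' strands, with members 1, 4 and 5, which were not tested, drawn there only. The 4 tested models of the span lie above 0 for OE2 against dgk1 and below 0 for dgk1 against WT. No model of the flanks shown was called, and some of them had few fragments. The 4 are not independent, since model 22830 overlaps momilactone A synthase. OS04G0180300 reached 1 FPKM only in OE2 and WT libraries, so the filter itself favours its signs.

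The flanks were read in the same way. Of the 5 nearest tested models on each side, 10 in all, 0 were called by limma and 0 by voom in any of the 3 comparisons, and at an unadjusted p under 0.05 there was 1, for OE2 against WT. OS04G0180900, the first after the cluster, was well expressed, with a mean of 109 ± 6.10 FPKM in OE2, 122 ± 7.53 FPKM in dgk1 and 122 ± 30.9 FPKM in WT (SD, n = 3 each). OS04G0181100 next to it had 244 ± 13.5 FPKM in OE2, 253 ± 15.9 FPKM in dgk1 and 259 ± 8.47 FPKM in WT. Other flank models were low, so their lack of calls says little. OS04G0177500 had 8 fragments in OE2, 7 in dgk1 and 3 in WT, and model 22825 had 23, 18 and 25. The noncoding model EPlOSAG00000049150 had 1, 0 and 3, below voom's minimum of 10, and EPlOSAG00000020867 had 7, 6 and 6. OS04G0177300, OS04G0177400 and model 22826 had line means of 0.851 to 2.68 FPKM. The flank median for OE2 against dgk1 was 0.081 on the log2 scale. Within 1 Mb of either side of the span, 64 models were tested and limma called 6 of them for OE2 against dgk1, 7 for OE2 against WT and 1 for dgk1 against WT. These were 9.38%, 10.9% and 1.56% of the 64, where 6.36%, 6.96% and 0.675% of all tested models were called.

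Precursor supply comes from the plastid MEP pathway, which builds the isoprene units of geranylgeranyl diphosphate. Its list held 9 models, of which 8 were tested. For OE2 against dgk1, limma called 2 higher and 0 lower and voom 3 higher and 0 lower, where 3.2% of all tested models were called higher by limma and 3.48% by voom, and the median log2 fold change was 0.28. For dgk1 against WT 0 were called by limma or voom, 2 had an unadjusted p under 0.05, as did 11.1% of all tested models, and the median was -0.26. For OE2 against WT 0 were called by either tool, 2 had an unadjusted p under 0.05, as did 20.6% of all tested models, and the median was 0.14.

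OS07G0190000, described as probable 1-deoxy-D-xylulose-5-phosphate (DXP) synthase 2, belongs to the enzymes that open the MEP pathway. It had 6.07, 17.1 and 12.2 FPKM in the OE2 libraries, 2.03, 2.08 and 2.33 FPKM in the dgk1 libraries and 5.44, 7.58 and 3.72 FPKM in the WT libraries. The dgk1 libraries were the lowest of all 9 and nearly equal, and OE2 replicate 1 was the lowest of its line. It was called higher in OE2 than in dgk1, with a log2 fold change of 1.92 ± 0.34 (SE) and an adjusted p of 0.0105 in limma, which became 0.0659 without OE2 replicate 3 and 0.0568 without WT replicate 1 and OE2 replicate 2, and 0.112 without these and dgk1 replicate 2. The value of dgk1 against WT was -1.02 ± 0.34 (SE), with an adjusted p of 0.309 in limma, and 0 of 19 alternatives called it. That of OE2 against WT was 0.90 ± 0.34 (SE), with an adjusted p of 0.180, and OE2 and WT libraries overlapped. It was called in 1 of 19 alternatives, with 1 library left out (0.0472). OE2 thus lay above WT by about as much as dgk1 lay below it, and neither difference passed in the main fit.

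The paralog OS05G0408900, DXP synthase 1, had another order of libraries. It had 3.68, 3.42 and 3.67 FPKM in the OE2 libraries, 5.12, 5.05 and 4.62 FPKM in the dgk1 libraries and 2.73, 4.82 and 4.28 FPKM in the WT libraries. Here the OE2 libraries lay below the dgk1 libraries, though the difference did not pass (log2 fold change -0.37, adjusted p 0.296 in limma).

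OS03G0731900 (ISPH), the HMBPP reductase of the pathway's closing step, was the other model called higher. It had 77.0, 80.0 and 91.6 FPKM in the OE2 libraries against 56.8, 55.1 and 48.2 FPKM in the dgk1 libraries, and 55.7, 79.0 and 62.9 FPKM in the WT libraries. The log2 fold change for OE2 against dgk1 was 0.62 ± 0.14 (SE), with an adjusted p of 0.0353, lost without any single OE2 or dgk1 library (0.0774 to 0.161), without WT replicate 3 (0.0547), without WT replicate 1 and OE2 replicate 2 (0.0692) or these and dgk1 replicate 2 (0.116), with no filter on low values (0.0630), with a replicate block (0.0845) and when libraries were scaled to an equal sum (0.0686). The reductoisomerase that follows DXP synthase, OS01G0106900 (DXR), had 56.7, 67.1 and 74.4 FPKM in OE2, 44.1, 39.4 and 40.0 FPKM in dgk1 and 50.4, 87.7 and 61.0 FPKM in WT. Its dgk1 libraries were again below the others, but limma called it in no comparison (adjusted p 0.0972 for OE2 against dgk1). In OE2 against dgk1 it passed in 3 of 19 alternatives, voom (0.0355), the 6 libraries of the comparison alone (0.0236) and without WT replicate 2 (0.0227).

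Diterpenoid genes outside the cluster were read from a list of 18 descriptions, which came to 17 models. Of these 15 were above 0 and 5 were tested. For dgk1 against WT limma called 0 of the 5, 2 had an unadjusted p under 0.05, and voom called the same number, 2, lower, with a list median of -0.041. Over all models voom tested, 0.267% were called lower. For OE2 against dgk1 limma and voom each called 1 higher and 0 lower, beside the 3.2% of all tested models called higher by limma, with a median of 0.21. For OE2 against WT both tools called 0, 0 had an unadjusted p under 0.05, and the median was 0.17.

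CYP76M8, OS02G0569400 on chromosome 2 (plus strand, 21690378 to 21692185), is described in the files as oryzalexin D synthase, and the P450 of this name is known to serve momilactone synthesis in rice as well. It had 14.4, 28.6 and 31.0 FPKM in the OE2 libraries, 4.69, 6.46 and 3.08 FPKM in the dgk1 libraries and 16.2, 16.6 and 15.0 FPKM in the WT libraries. All dgk1 libraries lay below all others, while OE2 and WT overlapped. It was called higher in OE2 than in dgk1 with a log2 fold change of 2.13 ± 0.30 (SE) and an adjusted p of 0.00296 in limma, a call kept in all 19 alternatives. The value of dgk1 against WT was -1.60 ± 0.30 (SE), not called in limma (adjusted p 0.0734) but called in voom (0.0265).

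KSL7, OS02G0570400, makes the hydrocarbon of the phytocassanes, another family of rice defence diterpenoids. It had 1.04, 2.69 and 3.78 FPKM in the OE2 libraries, 0.661, 1.04 and 0.527 FPKM in the dgk1 libraries and 3.45, 5.13 and 3.65 FPKM in the WT libraries. The WT libraries lay above all dgk1 libraries, and OE2 replicate 1 was level with the highest dgk1 library. For dgk1 against WT the log2 fold change was -1.54 ± 0.30 (SE), not called in limma (adjusted p 0.0834) but called in voom (0.0258). The value of OE2 against dgk1 was 0.93 (adjusted p 0.135).

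The other 3 tested models of the list showed smaller fold changes on the log2(FPKM + 1) scale. OS02G0668100, a subunit of geranylgeranyl diphosphate synthase, had 27.1 ± 1.28 FPKM in OE2, 27.1 ± 2.44 FPKM in dgk1 and 23.5 ± 4.54 FPKM in WT (SD, n = 3 each). KSL3 (OS04G0611700) had log2 fold changes of 0.21 for OE2 against dgk1 and -0.041 for dgk1 against WT, and CYP701A7 (OS06G0570600) had -0.23 and 0.083. CYP701A7 had only 12 fragments in OE2, 25 in dgk1 and 21 in WT. It passed the filter through dgk1 replicates 2 and 3 and WT replicate 3 only, so its inclusion favours lower OE2 values. Its ratio of means for OE2 against dgk1 was 0.591, a difference that the log2(FPKM + 1) scale understates at this level. The lowest adjusted p of these 3 models was 0.453, for the synthase subunit in OE2 against WT. Among the untested models, the hormone pathway's CPS1 (OS02G0278700) had 0.161 to 0.921 FPKM over all libraries, CYP76M5 (OS02G0569000) had 0.227 to 1.83 FPKM, and CYP701A8 (OS06G0569500), which is known to act in momilactone synthesis, was listed at 0 throughout.

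**Figure D3:**
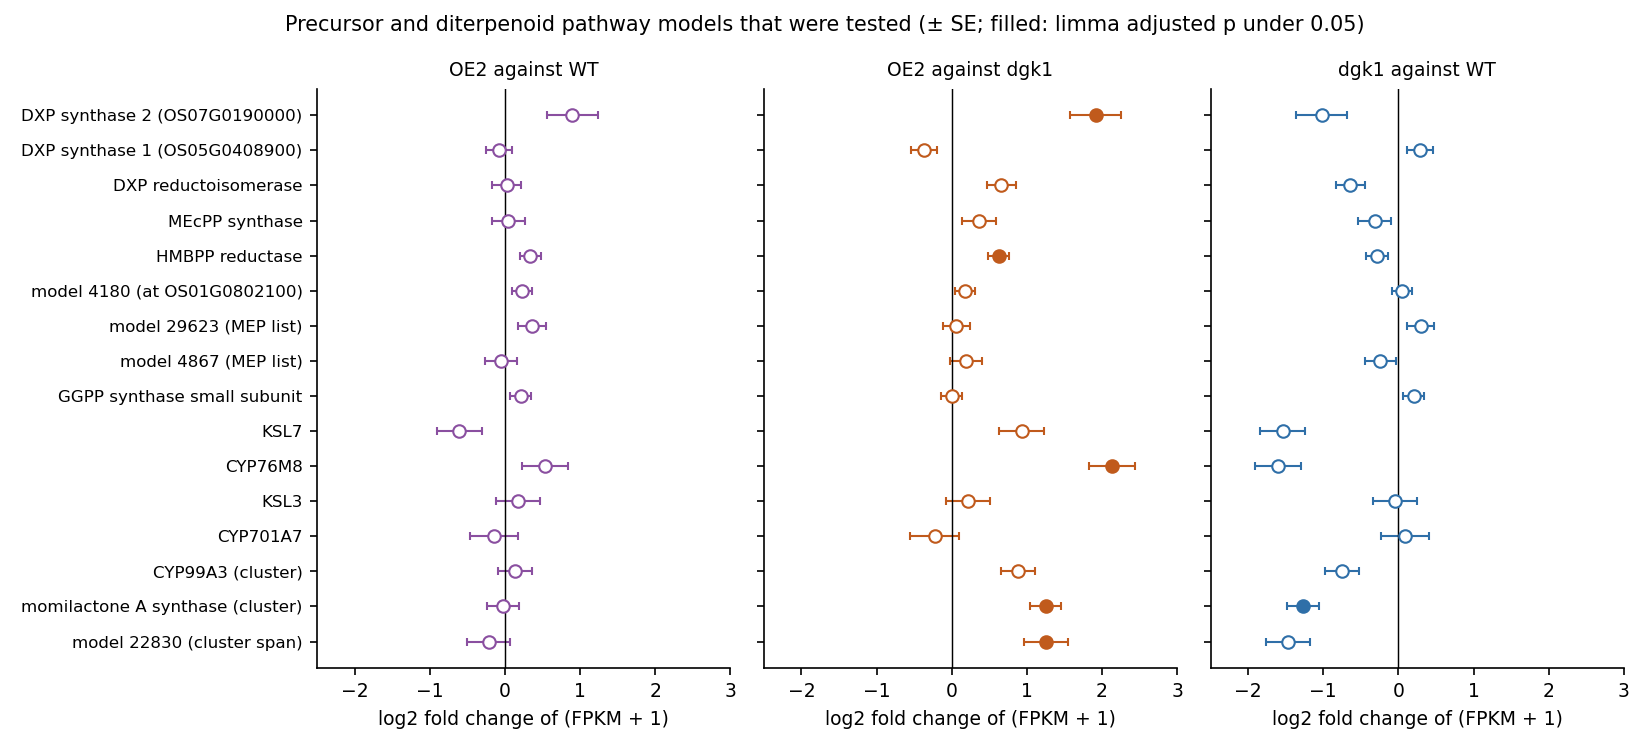
Log2 fold changes of log2(FPKM + 1) (points, ± SE) of the tested models of the MEP and diterpenoid lists, in 3 comparisons. CYP99A3, momilactone A synthase and model 22830 of the cluster span are drawn with them, and OS04G0180300 of the span is not. Filled points passed limma's adjusted p of 0.05. For OE2 against dgk1, DXP synthase 2, HMBPP reductase, CYP76M8, momilactone A synthase and model 22830 were called higher, for dgk1 against WT only momilactone A synthase was called, lower, and for OE2 against WT none of the models shown was called.

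The second rice cluster of this kind lies on chromosome 2, between 21662608 and 21906238 in the files' coordinates, and was read as a span of 243.631 kb once CYP76M8 had been seen to differ. It holds 62 models, 13 of them above 0 and 6 tested. The median log2 fold change of the 6 was 0.57 for OE2 against dgk1, -0.11 for OE2 against WT and -0.89 for dgk1 against WT. Beside CYP76M8, limma called model 15228, with no described function, lower in OE2 than in WT (log2 fold change -0.82, adjusted p 0.0185), where 3.24% of all tested models were called lower. The call was lost in 7 of 19 alternatives, among them 4 of the 9 that left out 1 library (adjusted p 0.0521 to 0.0823). Model 15228 averaged 5.45 FPKM in OE2, 7.19 FPKM in dgk1 and 10.3 FPKM in WT. OS02G0569900, described by its identifier only, had 5.19, 13.7 and 19.8 FPKM in the OE2 libraries, 3.80, 3.33 and 4.43 FPKM in the dgk1 libraries and 8.72, 16.4 and 8.14 FPKM in the WT libraries, and was called in no comparison. All its dgk1 libraries lay below the others. The dgk1 mean was the lowest of the 3 lines for 4 of the 6 tested models, beside 32.0% of all tested models. The 4 include CYP76M8, whose difference was the reason for reading this span. The OE2 mean was the lowest for model 15228 and the WT mean for model 15234.

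Of 2 models described with a terpene synthase's metal-binding domain, model 22832 of the cluster is one and model 9185 on chromosome 11 (minus strand, 16435035 to 16442206) is the other, chosen after its values were seen. Model 9185 had 10.9, 15.0 and 11.1 FPKM in the OE2 libraries, 5.80, 6.72 and 6.16 FPKM in the dgk1 libraries and 12.3, 11.7 and 8.25 FPKM in the WT libraries. The dgk1 libraries were below all others. It was called higher in OE2 than in dgk1 (log2 fold change 0.87 ± 0.18 SE, adjusted p 0.0211 in limma), a call lost without any single OE2 or dgk1 library (0.0527 to 0.0842) and without WT replicate 1 and OE2 replicate 2 (0.0715) or these and dgk1 replicate 2 (0.105), and was not called for dgk1 against WT (-0.69, adjusted p 0.192).

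Regulators named for this pathway gave little signal. MYC2 (OS10G0575000), a jasmonate-pathway transcription factor, had 7.30, 6.32 and 7.01 FPKM in the OE2 libraries, 6.47, 9.95 and 5.72 FPKM in the dgk1 libraries and 5.82, 7.43 and 8.40 FPKM in the WT libraries. The lines overlapped, with log2 fold changes of -0.058 for OE2 against dgk1 and 0.0081 for dgk1 against WT. OS04G0637000, described as a bZIP factor, was read through model 25583 and had at most 0.0988 FPKM, and the bHLH factor OS01G0196300 was listed at 0, so neither could be tested.

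The pattern of momilactone A synthase over the 9 libraries was compared with that of the 22382 other tested models by Pearson's correlation of log2(FPKM + 1), as a description, since the libraries share their groups. Outside the cluster span, the 5 most alike were a fructose-bisphosphate aldolase, OS08G0120600 (r = 0.958), model 20998, with a transporter domain (0.952), CYP76M8 (0.948), OS02G0649800, described by its identifier only (0.944), and model 5834, with a protein kinase domain (0.941). Inside the span, model 22830, which overlaps the synthase, had 0.953. CYP99A3 had 0.926 and came 11th of all, the 1 other tested member among the top 100. Model 9185 came 14th (0.922), KSL7 37th (0.891) and DXP synthase 2, OS07G0190000, 77th (0.862).

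Models with a high correlation to the synthase differed in the size of their changes. The aldolase OS08G0120600 had 90.5, 120 and 114 FPKM in the OE2 libraries, 61.8, 47.5 and 49.8 FPKM in the dgk1 libraries and 131, 98.2 and 77.1 FPKM in the WT libraries. These are close to the synthase's own levels. Model 5834 had 17.5, 21.9 and 24.3 FPKM in the OE2 libraries, 0.0220, 0 and 0 FPKM in the dgk1 libraries and 16.9, 11.5 and 11.1 FPKM in the WT libraries, so it was nearly absent from libraries labelled dgk1. It was called in dgk1 against WT (adjusted p 2.73e-05 in limma) and in OE2 against dgk1 (1.11e-06).

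**Figure D4:**
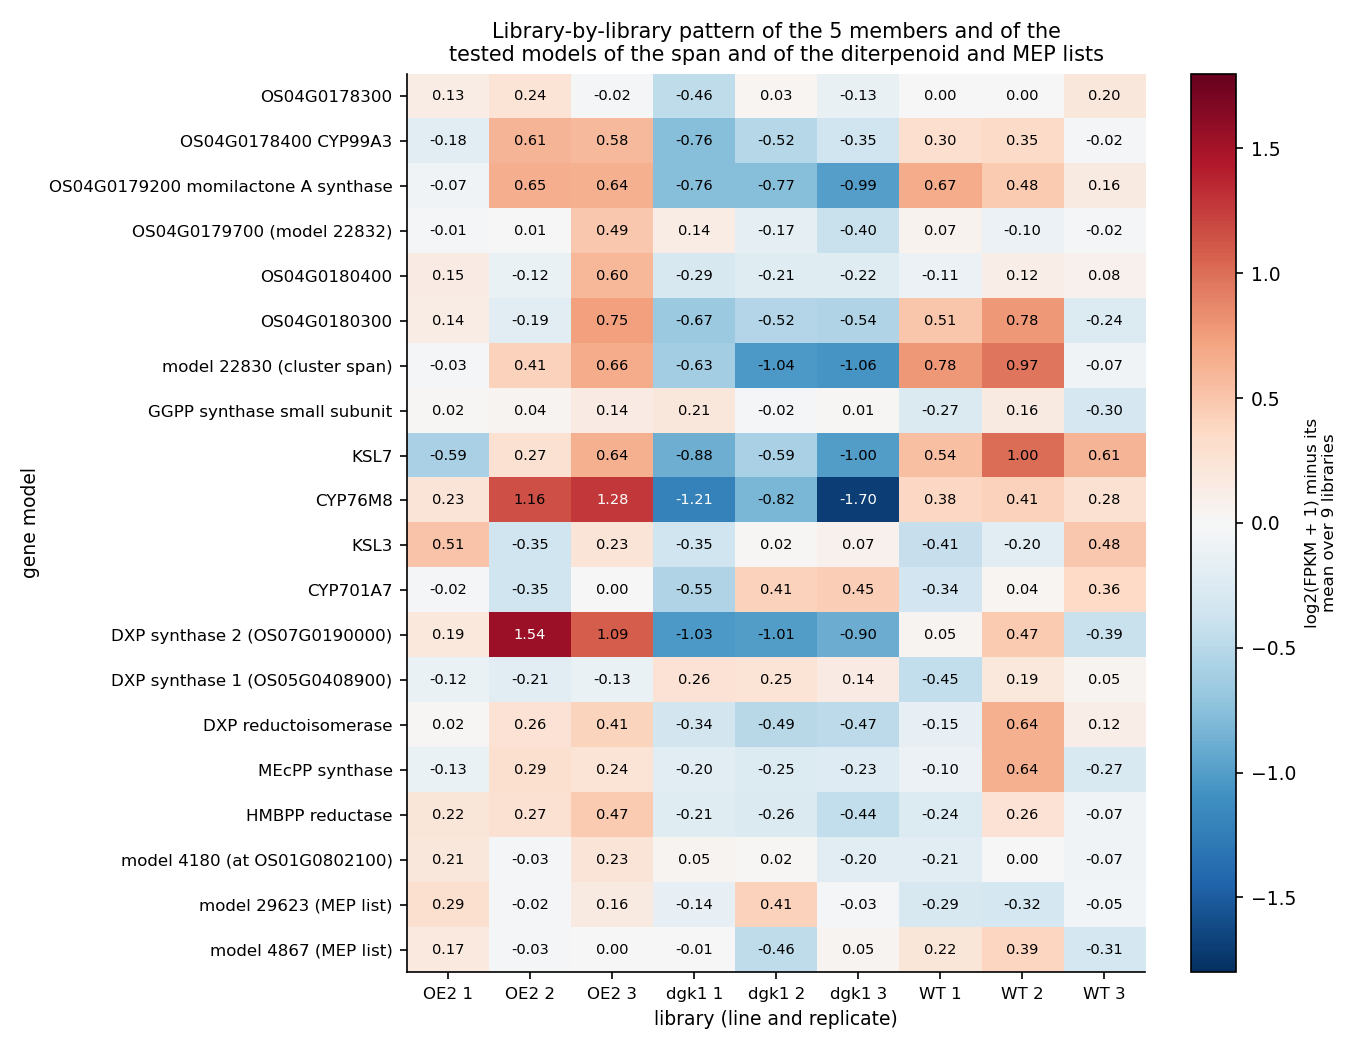
Colours and numbers give log2(FPKM + 1) of each model in each library minus the model's mean over the 9 libraries, for the 5 members, the other tested models of the span and all tested models of the diterpenoid and MEP lists, 20 in all. The 3 dgk1 columns are all below 0 for 11 of them, 3 of the 5 members included. They are all above 0 for DXP synthase 1, and mixed for the other 8. The 11 include model 22830, which overlaps the synthase, and OS04G0180300, which passed the filter only through OE2 and WT libraries. The share of all tested models with such columns was not counted, so the 11 cannot be set against a background.

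Libraries of one line also differed from one another. OE2 replicate 1 was the lowest OE2 library for 3 of the 5 members, momilactone A synthase, CYP99A3 and model 22832, while OS04G0178300 was lowest in OE2 replicate 3 and OS04G0180400 in OE2 replicate 2. It was also the lowest of its line for 3 of the 5 tested diterpenoid models and 4 of the 8 tested MEP models, as it was for 33.8% of all tested models.

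Markers of green tissue moved with some of these values. The 40 models described as chlorophyll a-b binding proteins, photosystem proteins or the Rubisco small subunit had 34 above 0, with PSBL and PSBK among those at 0, and their summed level was 341, 239 and 282 FPKM in the OE2 libraries, 208, 219 and 166 FPKM in the dgk1 libraries and 231, 290 and 350 FPKM in the WT libraries. The most abundant of them, CAB1R (OS09G0346500), a chlorophyll a-b binding protein, had 209, 138 and 142 FPKM in the OE2 libraries, 76.1, 87.6 and 66.2 FPKM in the dgk1 libraries and 102, 130 and 123 FPKM in the WT libraries. Without it the sums were 133, 101 and 140 FPKM in the OE2 libraries, 132, 132 and 99.8 FPKM in the dgk1 libraries and 129, 160 and 227 FPKM in the WT libraries, so that OE2 and dgk1 overlapped. For OE2 against dgk1 the median log2 fold change of the 20 tested ones was 0.031, with 11 above 0 and 9 below, and limma called 1 of them, CAB1R, higher (adjusted p 0.00859). All 20 tested ones were lower on average in dgk1 than in WT, with a median log2 fold change of -0.42, where 51.8% of all tested models were lower on average. Limma and voom called 0 of the 20, and 4 had an unadjusted p under 0.05, beside 11.1% of all tested models. For OE2 against WT, 15 of the 20 were lower on average and 5 higher, with a median log2 fold change of -0.33. Of all tested models 49.3% were lower on average in OE2 than in WT. Here too limma and voom called 0 of the 20, and 5 had an unadjusted p under 0.05, beside 20.6% of all tested models. OE2 replicate 2 had the least green-marker signal of its line and, with OE2 replicate 3, the most synthase. In dgk1, replicate 3 had the least of both, and in WT, replicate 1 had the least green-marker signal and the most synthase. Histone models, read as a sign of replicating cells, summed to 4572 to 4964 FPKM in OE2, 5115 to 5420 FPKM in dgk1 and 5840 to 7257 FPKM in WT. The part of these differences in the cluster's values was not tested.

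**Figure D5:**
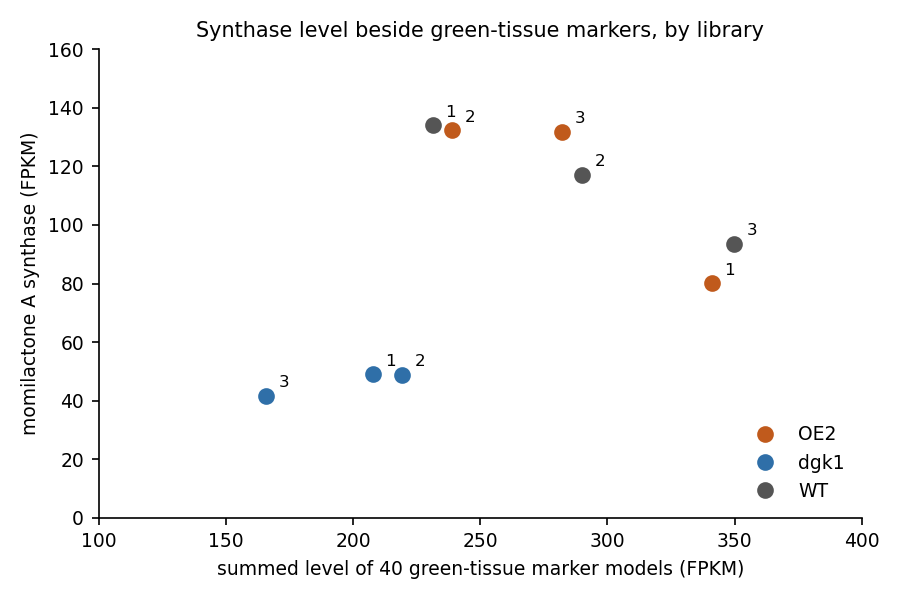
Level of momilactone A synthase (FPKM, vertical axis) against the summed level of 40 green-tissue marker models (FPKM, horizontal axis, which starts at 100) in each library, with replicate numbers. The dgk1 libraries, at 166 to 219 FPKM of markers, lie at 41.8 to 49.1 FPKM of synthase, and WT replicate 1, at 231 FPKM of markers, lies at 134 FPKM of synthase.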

How the data were processed

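Root RNA of 3 lines with 3 libraries each was measured. Per the labels' protocols, total RNA was extracted with Trizol, treated with DNase I and made into Illumina libraries, and per the submitters' processing notes CASAVA 1.8 and HISAT2 were used. The counter, genome build, annotation and use of strand are not stated in the labels or headers, so coordinates are as deposited. The authors deposited FPKM values, a unit inferred here: value times model length gave whole fragments, within 0.01, for 100% of values. FPKM divides by model length and depth, so overlapping models can share fragments.

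The tests planned for counts gave way to those for FPKM. limma 3.58.1 (R 4.3.3, statmod 1.5.0; trend and robust) was fitted to log2(FPKM + 1) of the 22383 models that reached 1 FPKM in 3 or more of 9 libraries, with line as the only term, two-sided, Benjamini-Hochberg adjusted over all of them at 0.05. The scale understates changes of low models. Tables used Python 3.11.15, pandas 2.3.3 and scipy 1.17.1. In simulated libraries with 100 4-fold and 100 2-fold changes each, limma recovered 88% and 33% for OE2 against dgk1, 91% and 44% for OE2 against WT, and 89% and 43% for dgk1 against WT, among 22371, 22342 and 22360 models. These simulations used a dispersion of 0.0244. False calls by limma were 5 of 126 calls for OE2 against dgk1 and 14 of 149 for OE2 against WT. For dgk1 against WT they were 11 of 143. Replicates of a line differed by more than sampling noise (chi-square per degree of freedom 5.01 to 18.7). P-values measure the spread between these libraries.

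Members and lists were chosen with earlier results of these data known, and lists were matched on the files' descriptions. Named were the members, the models of their span, 5 tested models on each flank, called and most abundant models of the MEP and diterpenoid lists, 3 regulators and the 5 models most like the synthase. The chromosome 2 span, the terpene synthase domain list, model 9185, OS02G0569900 and the extra alternatives, voom on at least 10 recovered fragments and fits without WT replicate 1 and OE2 replicate 2, alone and with dgk1 replicate 2, were added after values were seen. Other alternatives were a pseudocount of 0.1, no filter, a filter of 5 FPKM, the 6 libraries of a comparison, a replicate block, 2 rescalings and each library left out.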

Additional observations from a re-analysis of the deposited data

How the results depend on the processing

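Over all models, the calls became 706 for OE2 against dgk1 (1423 as reported), 794 for OE2 against WT (1557) and 77 for dgk1 against WT (151) with a filter of 5 FPKM. They became 874 and 580 for the OE2 comparisons with dgk1 and WT without WT replicate 1 and OE2 replicate 2, 298 for dgk1 against WT in voom on recovered fragments, and 687, 524 and 43 for OE2 against dgk1, OE2 against WT and dgk1 against WT without those 2 libraries and dgk1 replicate 2. Leaving out 1 library gave 604 to 1517 calls for OE2 against dgk1, 668 to 1626 for OE2 against WT and 34 to 143 for dgk1 against WT. These fits hold fewer models or libraries or another test, and the cause was not tested further.

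For momilactone A synthase in dgk1 against WT the direction held in all 19 alternatives, and 7 of them called it. The fold change was -1.27 with no filter (adjusted p 0.0825), -1.16 without WT replicate 1 and OE2 replicate 2 (0.111), -1.19 without these and dgk1 replicate 2 (0.168), and -1.41 to -1.16 with 1 library left out. For OE2 against dgk1 it was 1.13 to 1.49 with 1 library left out, 1.16 without those 3 libraries (0.0897), and 17 of 19 alternatives called it. For OE2 against WT it ran from -0.16 to 0.21. CYP99A3 was called in 2 of 19 alternatives for OE2 against dgk1, at 0.94 in voom and 1.14 without OE2 replicate 1, within a range of 0.74 to 1.14, and ran from -0.0094 to 0.39 for OE2 against WT. The log2 ratio of the members' sum for OE2 against WT was -0.032 with equal sums and -0.095 to 0.23 with 1 library left out.

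Same-numbered libraries did not deviate together over all tested models (correlations -0.161 to 0.0635), so no pairing by number was seen. An effect shared by few models would not show in these correlations. With the replicate block, 73 models were called for dgk1 against WT and the synthase, at -1.27, had an adjusted p of 0.156.

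Signs of uncalled differences between OE2 and WT turned for OS01G0106900 (-0.042 with equal sums, -0.17 without WT replicate 1 and OE2 replicate 2, -0.15 to 0.24 with 1 library left out), OS02G0680600 (-0.019, -0.13 and -0.13 to 0.32), OS02G0569900 (-0.15 without those 2 libraries, -0.28 to 0.60) and OS04G0180300 (-0.41 to 0.092). Fragments limit the 3 low members.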
